A study of Mus musculus with 6 samples.

Results

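The comparison set 2 forms of the transcription factor Ikaros against each other in leukaemic B cell precursors of the mouse: cells that lack zinc finger 4 and cells that lack zinc finger 1. The libraries were the 4 mutant libraries of a series of 6, with 2 biological replicates per genotype, and all genes with at least 1 RPKM in 2 or more of the 6 libraries were compared, 11345 of 22099 genes. RPKM is a read count scaled to the length of the transcript and to the reads of the library. The genotypes were Ikaros ZnF1-/- and Ikaros ZnF4-/-, and the wild type (wt) libraries of the series are given beside them for the level. All cells came from C57BL/6 whole bone marrow that was transduced at day 0 with a retroviral vector for the oncogene BCR-ABL p185, which also makes yellow fluorescent protein from an internal ribosome entry site, and were kept in culture for 14 days. The labels call the cells transformed pro-B acute lymphoblastic leukaemia cells. They do not give the age or sex of the mice, whether animals were pooled, or whether transduced cells were purified.

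Ikaros, the product of Ikzf1, is a DNA-binding protein that represses and activates genes of lymphoid cells, partly through chromatin complexes such as NuRD, and it is a tumour suppressor in B cell acute lymphoblastic leukaemia. The fingers at the amino end bind DNA: the inner fingers contact a core GGGAA motif, and the outer fingers 1 and 4 modulate which sites are bound, so that removal of either leaves a protein that still binds a part of its targets. BCR-ABL is a fusion kinase that drives growth of B cell precursors, and the step from cycling pro-B and large pre-B cells to resting small pre-B cells requires Ikaros.

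All values below are in the order replicate 1, then replicate 2. A difference is the ZnF4 mutant minus the ZnF1 mutant in log2(RPKM + 1), a scale that shrinks the change of genes with low values. The test was limma, blocked on the replicate number (the paired fit), adjusted over all 11345 genes by Benjamini-Hochberg, with a threshold of 0.05. Because only 2 pairs carry the block and the labels do not say what the number marks, each count is also given without the block, and genes past the threshold in both fits are named as such. The p-values measure the spread between these libraries only. In bulk RNA, fewer cells of a type and less RNA per cell cannot be told apart.

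In the paired fit, 3979 of 11345 genes differed between the mutants (35.1%), 1803 higher (15.9%) and 2176 lower (19.2%) in the ZnF4 mutant. Without the block 609 genes differed (5.37%), 183 higher (1.61%) and 426 lower (3.75%), and all 609 were also called in the paired fit. For each of the 609 the values of the mutants did not overlap. The test without the block already favours such genes, and the share of all genes without overlap is not given. A lack of overlap is therefore only a description, here and for genes named below. Lower genes were the larger group among strong changes: of the genes called in both fits, 153 were at least 2-fold higher and 370 at least 2-fold lower. The median difference of all genes tested was 0.04. These shares are the background for every count of list members below. Leaving out 1 library changed the count of the paired fit to between 1193 (without ZnF4 mutant replicate 2) and 2792 (without ZnF1 mutant replicate 1).

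**Figure D1:**
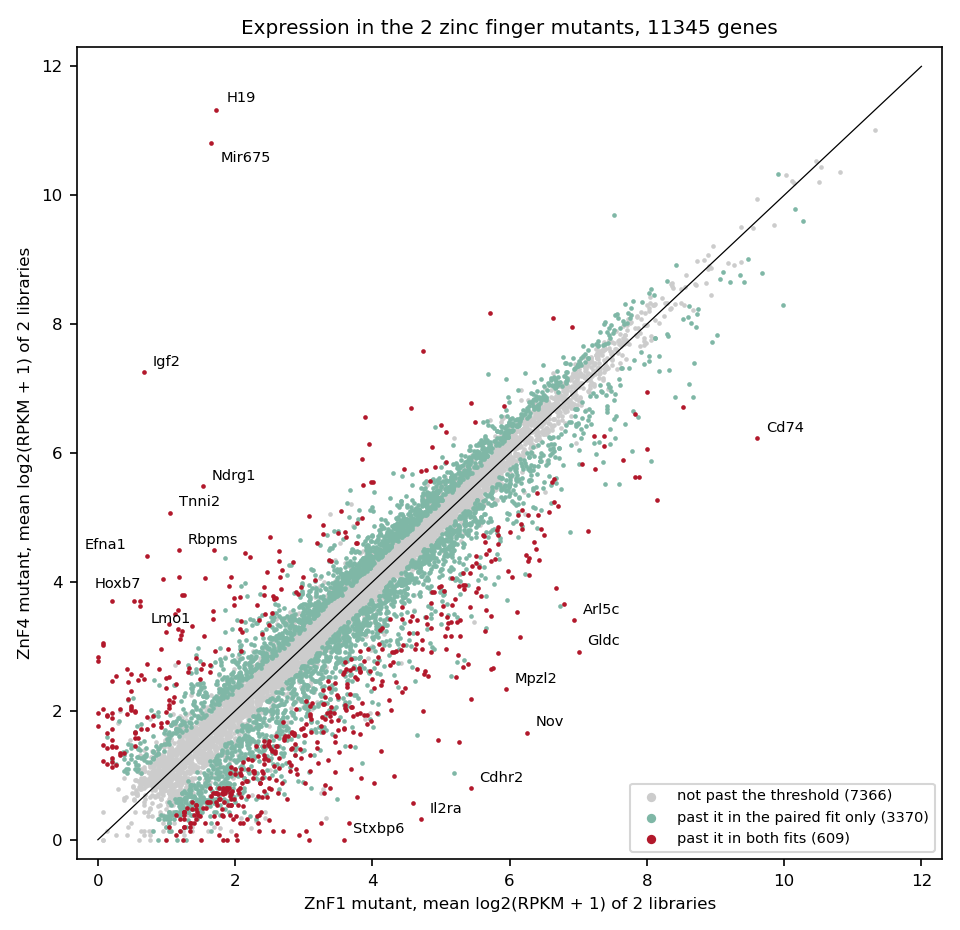
Each point is 1 of 11345 genes, with the mean log2(RPKM + 1) of the 2 ZnF1 mutant libraries on the x axis and that of the 2 ZnF4 mutant libraries on the y axis; colours mark genes past the threshold in the paired fit only or in both fits. H19, Mir675 and Igf2 lie far above the line of equal expression, and Cdhr2, Il2ra, Nov and Gldc lie far below it.

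Transcripts of other marrow cells differed between the libraries, and several groups below hold genes that such cells also express. The summed level of 24 macrophage and monocyte markers was 2062.4 and 2008.4 RPKM in ZnF1 mutant cells, against 760.4 and 761.3 in ZnF4 mutant cells and 765.6 and 680 in wt. All 22 tested markers of this list were lower in the ZnF4 mutant, 17 past the threshold in the paired fit and 10 in both, with a median difference of −1.28. Tyrobp, a signalling adaptor of myeloid cells, stood at 83 and 71.1 against 19.6 and 19.6 RPKM. The phagosome protein Cd68 stood at 161.5 and 140.9 against 58.8 and 47.7 RPKM, and the macrophage colony-stimulating factor receptor Csf1r at 36.9 and 32.9 against 17.5 and 14.2. ZnF4 mutant and wt libraries were therefore close in the summed level, and the ZnF1 mutant stood above both.

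Stromal and endothelial markers summed to 525.9 and 255.1 RPKM in ZnF1 mutant cells and to 136.2 and 117.3 in ZnF4 mutant cells. Of 18 tested members 14 were lower and 2 higher in the paired fit, 4 and 2 in both fits. Col3a1, Col5a1, Pdgfrb, Vcam1 and Kdr passed the expression filter only through the ZnF1 mutant libraries, and Cdh5 only through the ZnF4 mutant libraries. These members entered the test only through the group in which they were high, so their part of the count supports nothing about the list. The collagen gene Col1a1 stood at 28 and 8.8 against 4 and 2 RPKM. Granulocyte markers followed single libraries and not a genotype: they summed to 1807.9 RPKM in ZnF1 mutant replicate 2 and 564.3 in wt replicate 1, against 41.2, 11.1, 71.5 and 11 in ZnF1 mutant replicate 1, ZnF4 mutant replicates 1 and 2 and wt replicate 2. The median difference of the 13 tested granulocyte markers was accordingly 0.26 in the replicate 1 pair and −3.48 in the replicate 2 pair, and only the gelatinase Mmp9 passed the threshold. When the 2 libraries rich in granulocyte transcripts were left out, no gene passed the threshold in a fit without the block (0 of 11345, with 1452 genes at an unadjusted p under 0.05), and the ZnF1 mutant was then a single library.

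Pro-B and pre-B markers were high in all libraries, at a sum of 5367.4 and 4193.3 RPKM in ZnF1 mutant cells and 4797.5 and 3087.5 in ZnF4 mutant cells. Of 23 T and NK cell markers in the table, 7 were listed at 0 in every library, the CD3 chains Cd3e and Cd3g and both CD8 chains among them. Others were present. Lck stood at 53.4 and 26.6 against 18.1 and 15 RPKM, beside 46.2 and 27.4 in wt (limma adjusted p = 0.0095 and 0.21). Cd247 stood at 8.1 and 10.8 against 12 and 12.7 RPKM, beside 10.1 and 11.4 in wt. The list summed to 67.8 and 42.5 against 37.3 and 39.6 RPKM. From the pro-B and pre-B markers, the labelled cell type was present in both mutants, beside transcripts of myeloid and stromal cells.

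**Figure D2:**
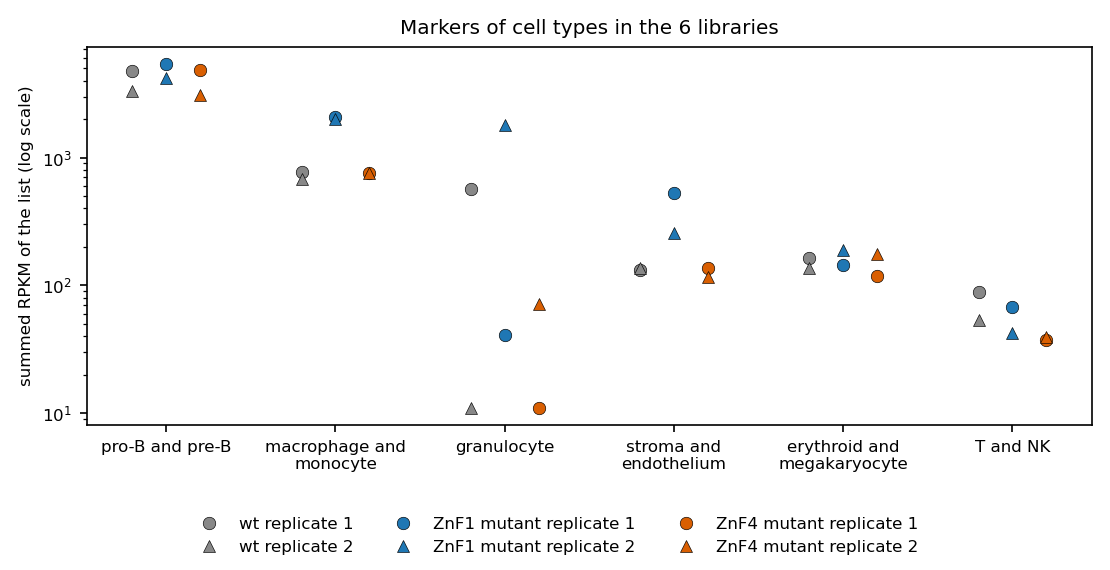
Summed RPKM of 6 marker lists (log scale) in each of the 6 libraries, with circles for replicate 1 and triangles for replicate 2. Macrophage and stromal sums were highest in both ZnF1 mutant libraries, and the granulocyte sum was highest in ZnF1 mutant replicate 2 and wt replicate 1.

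Ikzf1 itself was transcribed in every library, at 101.5 and 116.7 RPKM in ZnF1 mutant cells and 188.2 and 170.2 in ZnF4 mutant cells, beside 89.2 and 85.9 in wt. The ZnF4 mutant libraries were the highest and the groups did not overlap. The difference was 0.71 (SE 0.10, limma 95% confidence interval 0.44 to 0.98, adjusted p = 0.0084 in the paired fit and 0.074 without the block), and the paired call was lost in 1 of the 6 fits that leave out a library (adjusted p = 0.069). The level of the whole gene does not check a deletion of a finger. Of 21 tested Ikaros family and partner genes, 7 rose and 1 fell in the paired fit, and none passed without the block. Chd3, a helicase subunit of NuRD, stood at 20 and 22.9 against 42.4 and 36.8 RPKM, a difference of 0.85 (limma adjusted p = 0.0073 and 0.054), and Ikzf4, which encodes the family member Eos, at 1.8 and 0.9 against 4.1 and 2.9 RPKM. Ikzf3, which encodes the B cell family member Aiolos, stood at 51.2 and 64.2 against 54.4 and 52.1 RPKM and did not pass (difference −0.11, 95% confidence interval −0.39 to 0.18).

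The largest differences of the comparison lay in the imprinted H19 and Igf2 region. H19, a long noncoding RNA expressed from the maternal chromosome and mainly in fetal tissue, stood at 0.4 and 6.8 RPKM in ZnF1 mutant cells and 2369.6 and 2739 in ZnF4 mutant cells, beside 13.3 and 17.7 in wt. The difference was 9.59 (SE 0.56, limma adjusted p = 0.0011, and 0.011 without the block). Mir675, the microRNA hairpin within H19, stood at 0.6 and 5.1 against 2467.7 and 1305.5 RPKM. Igf2, the fetal growth factor expressed from the paternal chromosome, stood at 0.1 and 1.3 against 90.8 and 253.1 RPKM, beside 0.1 and 0.4 in wt, a difference of 6.59 (SE 0.26, adjusted p = 0.00068 and 0.012). For all 3 genes both ZnF4 mutant libraries stood far above every other library. The table gives 1 level per gene and does not separate the parental chromosomes. Reads of Mir675 lie within H19, and Igf2as, the antisense transcript of Igf2 (0 and 0 against 4 and 8.3 RPKM), overlaps Igf2. How shared reads were assigned, and any use of strand, are not stated in the sources at hand, so these members are not independent measurements. The mature sequences of the hairpin are shown because its level is one of the largest differences; the library of polyadenylated RNA measures the hairpin's host transcript, not the mature microRNAs. They are from RefSeq (GRCm38.p6, minus strand, chr7:142577112-142577133 for the 5p arm and chr7:142577078-142577099 for the 3p arm), with the seed, bases 2 to 8, in capitals.
miR-675-5p: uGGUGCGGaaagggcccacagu
miR-675-3p: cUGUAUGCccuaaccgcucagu

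Genes near H19 in the RefSeq gene order (GRCm38.p6) were examined after the values had been seen. The rise was not measured in an unbroken row from H19. Between H19 and Lsp1, Nctc1 was listed at 0 in every library. Mrpl23 (0.5 and 0.2 against 1.6 and 0.3 RPKM) and Tnnt3 (0 and 0.1 against 0.6 and 0.6) were too low to be tested. Gm14492 did not pass (difference 0.59, limma adjusted p = 0.054 and 0.17). Tnni2, a fast skeletal muscle troponin, rose from 0.8 and 1.4 to 26.6 and 40.3 RPKM, beside 4.9 and 4.4 in wt (difference 4.02, limma adjusted p = 0.00078 and 0.0082). Lsp1, an actin-binding protein of leukocytes that lies beside Tnni2, rose from 93.2 and 102.7 to 309.7 and 241.9 RPKM (difference 1.47, adjusted p = 0.0025 and 0.025). Further out, the lysosomal protease gene Ctsd, itself a macrophage marker, was lower in the paired fit at 540.2 and 448.5 against 227.5 and 195.1 RPKM, and Tspan32 did not pass (difference −0.23, adjusted p = 0.061). Ins2, Th and Ascl2, which lie between Igf2 and Tspan32, were listed at 0 in the 4 mutant libraries. Igf2 and Igf2as reached 1 RPKM in at most 1 library outside the ZnF4 mutant, so they entered the test only through the group in which they were high. They are part of the count of 12 tested imprinted genes, of which 6 rose and 3 fell in the paired fit, and 5 and 0 in both, and this count supports nothing about the list. Grb10, an adaptor that restrains growth factor receptors, rose from 7.4 and 6.5 to 15.2 and 16.6 RPKM. Igf2r, the receptor that clears Igf2, fell from 11.8 and 16.2 to 6.4 and 8.1 RPKM in the paired fit only, and Cdkn1c, an imprinted cell cycle inhibitor, stood at 2.1 and 1 against 0.4 and 0.1 RPKM, beside 0.8 and 0.4 in wt. Cdkn1c thus entered the test only through the ZnF1 mutant libraries, in which it was high.

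Hox genes, which encode homeodomain proteins of early progenitors, were mostly silent: 4 of 32 could be tested. Hoxb7 stood at 0.2 and 0.1 RPKM in ZnF1 mutant cells and 11.6 and 12.6 in ZnF4 mutant cells, beside 0 and 0.1 in wt (difference 3.51, limma adjusted p = 0.00068 and 0.0053). Its neighbours Hoxb8 (0 and 0 against 7.5 and 5 RPKM) and Hoxb6 (0.4 and 0.3 against 4.6 and 2.7) rose with it in both fits. Hoxb4, in the same cluster, stood at 3.7 and 2.3 against 2.8 and 2.6 RPKM and did not pass. The rise thus passed the threshold in 3 adjacent genes of the Hoxb cluster. Other genes of the cluster were too low to be tested. Of these, Hoxb5, next to Hoxb6, stood at 0.1 and 0.1 against 1.3 and 0.9 RPKM. Hoxb3 stood at 0.4 and 0.5 against 0.8 and 0.7, and Hoxb2 at 0.1 and 0.1 against 0 and 0. Hoxb6, Hoxb7 and Hoxb8 passed the expression filter through the ZnF4 mutant libraries, in which they were high.

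The other genes with the largest rises were of varied function. Ndrg1, a stress and differentiation gene, rose from 1.9 and 1.9 to 52.6 and 36.5 RPKM, and Efna1, a membrane ligand of Eph receptors, from 0.5 and 0.8 to 23.5 and 17.4. Lmo1, a transcription cofactor that acts as an oncogene in T cell leukaemia, rose from 0.3 and 0.8 to 16.4 and 7.8 RPKM, beside 0.1 and 0.1 in wt. Thy1, a surface glycoprotein of T cells and of early progenitors, was nearly absent from the ZnF1 mutant at 0.8 and 0.3 RPKM, whereas the ZnF4 mutant at 14.3 and 10.2 stood close to wt at 12.9 and 9.9. Rbpms, an RNA-binding protein, rose from 1.7 and 0.9 to 26.7 and 17.3 RPKM, Mdfi, an inhibitor of myogenic factors, from 0.6 and 0.3 to 16.5 and 8.7, and Fetub, a liver protease inhibitor, from 1.5 and 0.5 to 22.7 and 10.6. Efna1, Lmo1 and Mdfi, like Igf2, passed the expression filter only through the ZnF4 mutant libraries. The carbonic anhydrase gene Car2, noticed after its value was seen, rose from 63.6 and 41.6 to 311.4 and 267.8 RPKM, and its neighbours Car3 and Car13 rose by 2.22 and 1.57 (log2), all in both fits.

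Most of the largest falls were in genes that were well expressed in both ZnF1 mutant and wt cells. Cdhr2, a protocadherin, stood at 43.8 and 40.8 RPKM in ZnF1 mutant cells and 0.9 and 0.6 in ZnF4 mutant cells, beside 45 and 44 in wt (difference −4.63, SE 0.08, limma adjusted p = 0.00036 and 0.0031). Nov, a secreted matrix protein of the CCN family, fell from 72.8 and 78.4 to 1.5 and 3 RPKM. Gldc, the glycine decarboxylase of mitochondria, fell from 169 and 96.6 to 7.4 and 5.8 RPKM, beside 307.1 and 236.9 in wt. Gpr171, a G protein-coupled receptor of lymphocytes, fell from 45.7 and 30.3 to 1.7 and 2 RPKM, Mpzl2, an adhesion protein, from 97.8 and 37.4 to 4 and 4.1, and Arl5c, a small GTPase, from 159.4 and 93.1 to 12.6 and 7.3. The homeobox gene Dlx1 (14.9 and 9 against 0.2 and 0.2 RPKM) lies over an antisense transcript whose reads cannot be told apart from its own. Stxbp6, a regulator of vesicle fusion, stood apart from these. It was at 19.7 and 6 RPKM in ZnF1 mutant cells, listed at 0 in both ZnF4 mutant libraries and at 0.5 and 0.1 in wt. Stxbp6 thus passed the expression filter only through the ZnF1 mutant libraries, in which it was high. The 24 genes named for their size, 12 in each direction, were chosen among genes past the threshold in both fits with groups that do not overlap. None of them changed direction in the 6 paired fits that leave out a library. That follows largely from the choice in these same libraries and is no added support.

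**Figure D3:**
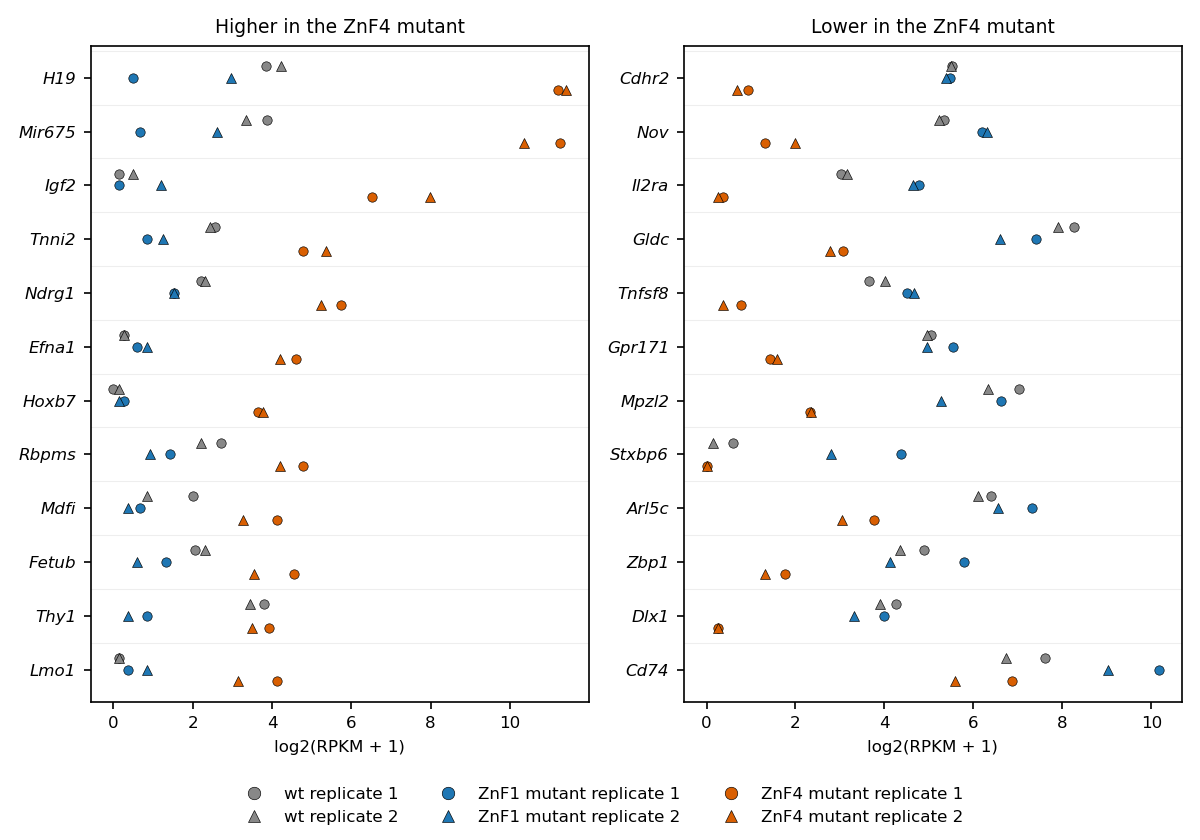
Log2(RPKM + 1) of the 24 genes with the largest differences, with wt in grey, ZnF1 mutant in blue and ZnF4 mutant in orange, circles for replicate 1 and triangles for replicate 2. The orange points stand apart from the blue points in every gene, which the choice of these genes required. For most of the lower genes the grey wt points lie near the blue points, while for Stxbp6 they lie near the orange points.

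Promoters of these genes were searched for TGGGAA, which holds the core of the Ikaros motif, on both strands (TTCCCA on the other), in windows of 300 bases from 250 before to 50 after a RefSeq start (GRCm38.p6). Of all genes tested 7996 had a window, and 23.1% of their 10216 windows held the motif. The share was 29.9% of 174 windows for the genes that rose in both fits and 23.2% of 397 for those that fell in both. Of the 24 genes, 11 had a window and 5 of these held the motif: Igf2, Fetub and Lmo1, which rose, and Gldc and Stxbp6, which fell. The 5 of 11 counts genes, several of which had 2 or 4 windows, whereas the shares above count windows. The share of all tested genes with a match is not given, so the 5 of 11 cannot be set against a background. Matches were found among genes of both directions, and neither the shares of windows nor the count of genes was tested. A match is a description of the sequence and not a measured binding site. For these 5 genes a stretch of 120 bases is shown in the direction of transcription with the motif in capitals, since they have both a large difference and the core letters. The stretches are chr7:142666817-142666936, chr16:22918132-22918251, chr7:109175304-109175423, chr19:30175450-30175569 and chr12:45074614-45074733, on the minus strand except Fetub.
Igf2: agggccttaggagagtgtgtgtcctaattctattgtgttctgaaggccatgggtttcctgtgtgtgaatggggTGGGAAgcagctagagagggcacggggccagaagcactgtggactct
Fetub: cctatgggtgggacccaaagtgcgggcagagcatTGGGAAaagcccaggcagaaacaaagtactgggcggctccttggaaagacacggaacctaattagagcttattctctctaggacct
Lmo1: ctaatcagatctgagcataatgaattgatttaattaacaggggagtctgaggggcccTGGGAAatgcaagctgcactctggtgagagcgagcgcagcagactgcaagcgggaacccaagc
Gldc: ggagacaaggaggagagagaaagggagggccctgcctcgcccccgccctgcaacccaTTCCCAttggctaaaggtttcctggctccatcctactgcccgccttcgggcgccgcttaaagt
Stxbp6: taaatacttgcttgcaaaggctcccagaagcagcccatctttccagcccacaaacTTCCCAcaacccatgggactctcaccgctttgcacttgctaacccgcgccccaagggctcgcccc

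Surface markers that order the pro-B to pre-B transition separated the mutants. Of 20 tested stage markers and cytokine receptors, 14 were lower and 2 higher in the ZnF4 mutant in the paired fit, and 8 and 2 in both fits, with a median difference of −0.92, against 19.2% lower and 15.9% higher of all genes in the paired fit. The list includes Csf1r and Cd44, which macrophages express and which fell in both fits; the macrophage sum was 2062.4 and 2008.4 against 760.4 and 761.3 RPKM, and its part in the count was not tested. Kit, a receptor tyrosine kinase of early pro-B cells, stood at 1 and 1.6 RPKM in ZnF1 mutant cells and 16.2 and 15.4 in ZnF4 mutant cells, beside 0.4 and 0.3 in wt (difference 2.88, SE 0.15, limma adjusted p = 0.00094 and 0.0082). Il2ra, the CD25 chain that appears on pre-B cells, differed in the other direction between the mutants. It stood at 26.6 and 24 RPKM in ZnF1 mutant cells, 0.3 and 0.2 in ZnF4 mutant cells and 7.1 and 8 in wt (difference −4.39, SE 0.11, limma adjusted p = 0.00051 and 0.0031). Cd2, an adhesion receptor that appears from the pre-B stage, fell from 65.6 and 75.1 to 10.2 and 6 RPKM. Enpep, which encodes the BP-1 antigen of late pro-B and large pre-B cells, stood at 51.1 and 61.7 against 7 and 6 RPKM, beside 136.7 and 144 in wt. Bst1, the BP-3 antigen of B precursors, stood at 85.1 and 84.8 against 16.8 and 22.3 RPKM. The groups did not overlap for any of these 5 genes, and all 5 passed in both fits. Il7r, the interleukin 7 receptor, passed in the paired fit only, at 43.5 and 70.5 against 21.1 and 20.3 RPKM (adjusted p = 0.0062 and 0.062), and Cd24a, a surface glycoprotein of B precursors, did not differ past the threshold.

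Rag1 and Rag2, the recombinase genes, did not differ past the threshold between the mutants, and both stood higher than in wt. Rag1 stood at 29.2 and 35.9 RPKM in ZnF1 mutant cells, 31.6 and 33.3 in ZnF4 mutant cells and 5.4 and 8.7 in wt, and the difference between the mutants was 0.0025 (95% confidence interval −0.34 to 0.35, limma adjusted p = 0.99). Rag2 stood at 12.3 and 17.2 against 14.1 and 16.1 RPKM (difference 0.05, interval −0.37 to 0.46). The mutants' values overlapped for both genes. Dntt, the terminal transferase of pro-B cells that adds bases at the joints, was lower in the ZnF4 mutant at 79.4 and 40.6 against 205.7 and 129.2 RPKM, with no overlap (difference −1.50, adjusted p = 0.0047, but 0.10 without the block). Of 18 tested genes of V(D)J recombination and end joining, 1 rose and 5 fell in the paired fit, against 15.9% and 19.2% of all genes, and none passed without the block. Their median difference was 0.03. Lig4, the ligase that seals the joints, was one of those lower in the paired fit, at 6.6 and 7.6 against 3.6 and 3.9 RPKM.

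The surrogate light chain of the pre-B cell receptor did not differ past the threshold, while kinases that act behind it fell. Igll1 stood at 803.5 and 749 against 1201.4 and 801.4 RPKM and Vpreb1 at 367.9 and 167.8 against 365.7 and 173.4, with adjusted p of 0.11 and 0.86 in the paired limma fit. Blk, the Src family kinase of B cells, fell from 57.5 and 47.2 to 8 and 3.4 RPKM, beside 66.2 and 54.1 in wt (difference −3.08, SE 0.20, adjusted p = 0.0013 and 0.021). Sykb, the symbol of the table for the kinase Syk, fell from 134.9 and 128.6 to 64 and 49.1 RPKM, and the Src family kinase Lyn from 46.4 and 49.8 to 26.3 and 24.5, close to wt at 26.6 and 27.5. Of the 21 genes of the receptor and its proximal signalling, 10 fell and none rose in the paired fit, and Blk, Sykb and Lyn passed in both. Among those of the paired fit only were Pik3cd, the lymphoid phosphoinositide 3-kinase (372.5 and 272.3 against 183.9 and 130.9 RPKM), and Inpp5d, which encodes the phosphatase SHIP (189 and 154.2 against 108.7 and 94.6). Fyn, another Src family kinase, stood at 53 and 45.2 against 52.4 and 42.9 RPKM and did not pass (95% confidence interval −0.22 to 0.13). The macrophage markers given above moved in the same direction as Lyn, Sykb and Inpp5d, which myeloid cells also express, and their part in these differences was not tested.

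Inhibitory receptors and adaptors of B cells moved in both directions. Of 18 tested, 10 fell and 2 rose in the paired fit, and 4 and 1 in both. Cd22, a lectin that restrains the B cell receptor, rose from 2.1 and 3.6 to 18 and 11.4 RPKM, beside 5.7 and 6.3 in wt (difference 2.02, limma adjusted p = 0.0070 and 0.028). Fcrl6, an Fc receptor like protein, stood at 10.9 and 6.6 against 0.2 and 0.2 RPKM, and the adaptor Dok2 at 19.7 and 19 against 4.8 and 4.1. Fcgr2b, the inhibitory Fc receptor, was lower in the ZnF4 mutant at 27.9 and 28.1 against 53.7 and 57.9 RPKM, beside 16.9 and 15.6 in wt. Fcgr2b, Dok2 and Lilrb3 are expressed by macrophages as well, whose markers were higher in the ZnF1 mutant, and this part was not tested.

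The core transcription factors of the B lineage did not differ past the threshold. Pax5 stood at 132.3 and 184.5 against 174.1 and 128.1 RPKM, Ebf1 at 209.4 and 186.1 against 204.3 and 163.4, and Foxo1 at 67.8 and 62.4 against 74.9 and 61, and none of these passed the paired limma test (95% confidence intervals of the difference −0.63 to 0.50, −0.32 to 0.09 and −0.17 to 0.28). Of 29 tested factors, 10 fell and 2 rose in the paired fit and none passed without the block. Spib, an Ets factor of B cells, was lower at 71.8 and 28 against 181.3 and 154.4 RPKM (difference −1.87, adjusted p = 0.0068 and 0.11). Bach2, a repressor that acts at the pre-B cell receptor checkpoint, stood at 26.9 and 27.3 against 17.4 and 13.7 RPKM, and Id2, an inhibitor of E proteins, at 17.9 and 12.9 against 5.7 and 6. Mef2c, an activator of the pre-B programme, was higher at 71.8 and 68.4 against 42 and 49.9 RPKM (difference 0.60, adjusted p = 0.012 and 0.12). Values of the mutants did not overlap for Spib, Bach2, Id2 or Mef2c.

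**Figure D4:**
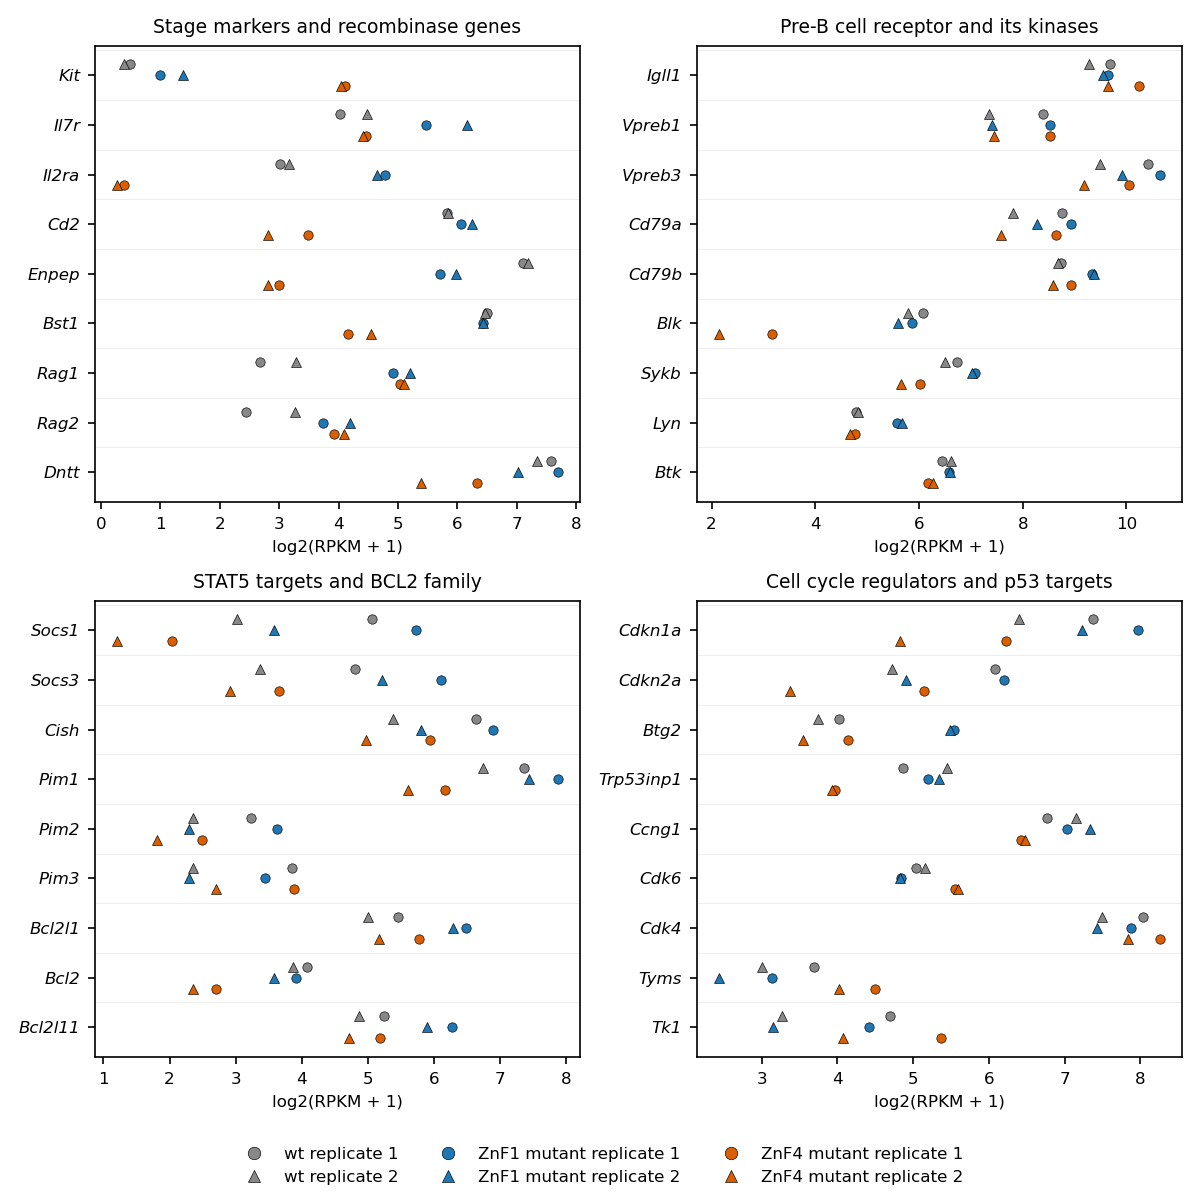
Log2(RPKM + 1) of named genes in 4 panels (stage markers and recombinase genes, pre-B cell receptor and kinases, STAT5 targets and BCL2 family, cell cycle regulators and p53 targets) in the 6 libraries, with wt in grey, ZnF1 mutant in blue and ZnF4 mutant in orange. Kit lies higher and Il2ra, Cd2, Enpep and Blk lower in the ZnF4 mutant, while Rag1 and Rag2 overlap between the mutants.

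Genes of later B cell stages moved in both directions, and the MHC class II genes that passed the threshold fell. Of 19 tested later stage genes, 9 fell and 3 rose in the paired fit, and 6 and 1 in both. Cxcr5, the chemokine receptor that guides B cells to follicles, stood at 24 and 11.2 RPKM in ZnF1 mutant cells, 1.5 and 1.7 in ZnF4 mutant cells and 57.5 and 45.4 in wt. Cd180, a Toll-like receptor homologue of B cells, was the member that rose in both fits, from 12.7 and 14.2 to 30.5 and 31.1 RPKM. Cd86 and Cd80, costimulatory ligands that macrophages also carry, were at 1.8 and 2.1 against 0.1 and 0.3 RPKM and at 2.3 and 1.8 against 0.5 and 0.5. Of 12 tested genes of MHC class II presentation, 9 fell in the paired fit and 2 in both. Cd74, the invariant chain, was measured at 1160.8 and 524.8 RPKM in ZnF1 mutant cells, 115.6 and 47.2 in ZnF4 mutant cells and 193.8 and 104.9 in wt (difference −3.38, limma adjusted p = 0.00068 and 0.044), and the cathepsin gene Ctss at 148.7 and 182.7 against 67.6 and 85.8. The class II chains H2-Aa, H2-Ab1 and H2-Eb1 did not follow, with overlapping groups and no pass. H2-Aa stood at 5.5 and 12.6 against 28.9 and 8.4 RPKM (difference 0.83). H2-Ab1 stood at 35.9 and 32.4 against 55.5 and 22 (difference 0.04), and H2-Eb1 at 1.9 and 4.8 against 11.5 and 3.1 (difference 0.80). Macrophages express this pathway, and the part of their transcripts in these differences was not tested.

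Of 24 tested ligands and receptors of the TNF superfamily, 15 fell and 2 rose in the paired fit, and 5 and 1 in both fits, with a median difference of −0.84. Tnfsf8, the CD30 ligand, fell from 21.8 and 24.5 to 0.7 and 0.3 RPKM, beside 11.6 and 15.2 in wt (difference −4.02, limma adjusted p = 0.00082 and 0.0075). The lymphotoxin genes Lta and Ltb fell from 440.3 and 179.3 to 47.1 and 30.1 RPKM and from 65.6 and 37 to 14.5 and 8.1. Tnfrsf8, which encodes CD30, the receptor for Tnfsf8, rose from 0.1 and 0.3 to 1.4 and 1.1 RPKM, so ligand and receptor moved in opposite directions. Among interferon response genes, 10 of 26 fell and 1 rose in the paired fit, against 19.2% lower and 15.9% higher of all genes, and 4 fell in both. Of these, Zbp1, a nucleic acid sensor, stood at 54.4 and 16.4 against 2.4 and 1.5 RPKM, and the guanylate binding protein Gbp2 at 141.8 and 85.5 against 7.4 and 17.9. Ifih1, the sensor MDA5, was the member that rose in the paired fit, at 1 and 1.1 against 1.8 and 2.2 RPKM, and not in the other. The macrophage sum (2062.4 and 2008.4 against 760.4 and 761.3 RPKM) and the stromal sum (525.9 and 255.1 against 136.2 and 117.3) were also lower in the ZnF4 mutant, and their part in the TNF and interferon counts was not tested.

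STAT5, which BCR-ABL activates, induces the SOCS feedback inhibitors and the PIM kinases. Of 16 tested genes of this list 10 fell and 2 rose in the paired fit, and 2 fell in both, Il2ra and Pim1. The kinase gene Pim1 stood at 233.4 and 171.8 against 70.7 and 47.9 RPKM, beside 162.4 and 105.6 in wt (difference −1.77, SE 0.08, limma adjusted p = 0.00078 and 0.045). Socs1 stood at 51.8 and 10.9 against 3.1 and 1.3 RPKM and Socs3 at 67.8 and 36 against 11.6 and 6.5, with no overlap, and both passed in the paired fit only (adjusted p without the block 0.16 and 0.092). Replicate 1 was the higher library in every genotype for these genes. Pim3, a further kinase of the family, went the other way in the paired fit (9.9 and 3.9 against 13.8 and 5.5 RPKM, difference 0.42), with overlapping groups. That difference was −0.15 in the fit that left out both the 2 libraries rich in granulocyte transcripts and the block, while within the replicate 1 pair, which holds neither of these libraries, the ZnF4 mutant value was the higher.

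In the BCL2 family of survival and death genes, 7 of 13 fell and 1 rose in the paired fit. The antiapoptotic Bcl2 fell in both fits, from 14 and 10.9 to 5.5 and 4.1 RPKM, beside 15.9 and 13.6 in wt. In the paired fit only, the antiapoptotic Bcl2l1, which encodes Bcl-xL, fell from 88.7 and 77.1 to 53.4 and 35 RPKM and the proapoptotic Bcl2l11, which encodes Bim, from 76.4 and 58.7 to 35.2 and 25.3. Bok, a proapoptotic member, rose from 12 and 5.8 to 31.7 and 16.4 RPKM in that fit. Among p53 targets, 14 of 26 fell and none rose in the paired fit, and 4 fell in both. The antiproliferative gene Btg2 fell from 45.6 and 43.7 to 16.6 and 10.7 RPKM (difference −1.67, limma adjusted p = 0.0019 and 0.028), and Trp53inp1, a stress protein that p53 induces, from 35.8 and 39.4 to 14.6 and 14.2. Cdkn1a, the p21 cell cycle inhibitor, stood at 250.4 and 148.6 against 73.6 and 27.5 RPKM and passed in the paired fit only (adjusted p = 0.0017 and 0.13).

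Proliferation genes had mostly small positive differences in the ZnF4 mutant, many of which did not pass. All 40 tested genes of DNA replication had a positive difference, 28 past the threshold in the paired fit against 15.9% of all genes, with a median of 0.35. Of 38 mitosis genes 37 were positive and 29 passed (median 0.41), and of 30 genes of ribosome biogenesis 29 were positive and 18 passed (median 0.35). No member of the 3 lists passed without the block. Tyms, the thymidylate synthase, had the largest difference of the replication list, at 7.8 and 4.4 RPKM in ZnF1 mutant cells and 21.6 and 15.3 in ZnF4 mutant cells, beside 11.9 and 7 in wt (difference 1.48, SE 0.09, limma adjusted p = 0.0012 and 0.092). Tk1, the thymidine kinase, stood at 20.4 and 7.9 against 40.2 and 15.8 RPKM, higher within each pair although the groups overlap. The mitotic kinase Cdk1 stood at 44.6 and 41.9 against 59.2 and 63.8 RPKM, and Ccnb1, its cyclin, at 6.3 and 7.6 against 9.9 and 13.5. Macrophage and stromal markers were higher in the ZnF1 mutant, and their part in these small differences was not tested.

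Of 20 tested regulators of the cell cycle, 6 were higher and 5 lower in the paired fit, against 15.9% and 19.2% of all genes. Cdkn1c, given above, is among the 5 and entered the test only through the ZnF1 mutant libraries, in which it was high. Its part of the count supports nothing about the list. Cdk6, the D cyclin kinase, rose in both fits from 27.7 and 27.4 to 45.8 and 47.2 RPKM, beside 31.9 and 34.6 in wt (difference 0.73, limma adjusted p = 0.0030 and 0.0497), and Cdkn2b, an inhibitor of Cdk4 and Cdk6, fell in both from 2.8 and 2.8 to 1.2 and 0.9. Cdkn2a, the Arf and Ink4a locus, was lower in the paired fit at 72.6 and 29 against 34.5 and 9.4 RPKM, with overlapping groups. Myc, the growth regulator, stood at 151 and 183.8 against 290 and 234.5 RPKM (difference 0.64, adjusted p = 0.044 and 0.21), a call lost in 5 of the 6 fits that leave out a library. Mycn, its paralogue of fetal and progenitor cells, fell in both fits from 19.5 and 21.5 to 4.5 and 3.4 RPKM.

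Metabolic genes moved in both directions in the paired fit, in which 15.9% of all genes rose and 19.2% fell. Of 22 tested genes of glycolysis and the pentose phosphate pathway, 8 rose and 4 fell in the paired fit. Pfkl, a phosphofructokinase subunit, rose in both fits from 25.5 and 24.8 to 56.9 and 46.9 RPKM. The hexokinases parted in the paired fit: Hk2 was higher at 14.7 and 18.7 against 8.5 and 10.1 RPKM, and Hk1 lower at 18.3 and 15.2 against 31.5 and 23.7. The members that fell with Hk1 were the pentose phosphate genes Taldo1, Pgd and G6pdx, with differences of −0.44, −0.38 and −0.33. In one-carbon metabolism 8 of 19 rose and 1 fell, with Shmt1, a serine hydroxymethyltransferase, at 47 and 37.2 against 71.4 and 58.9 RPKM. Aldh1l1, at 0.5 and 0.6 against 1.5 and 1.3 RPKM, is among the 8. It entered the test only through the ZnF4 mutant libraries, in which it was high, so its part of the count supports nothing about the list. The member that fell was Gldc, given above.

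Adhesion genes fell in most cases, with a group that rose. Of 35 tested, 19 fell and 3 rose in the paired fit, and 5 and 3 in both. Among those that fell, Itgb7, Parva, Vcam1 and Cdh1 reached 1 RPKM in at most 1 library outside the ZnF1 mutant. They entered the test only through the group in which they were high, so their part of the count supports nothing about the list. The 3 that rose were Ptk2, the focal adhesion kinase (4.9 and 6 against 15 and 19.6 RPKM, beside 1.6 and 1.9 in wt), Ctnnd1, which encodes p120 catenin (32.5 and 32.9 against 84.8 and 74.8), and Ctnna1, the alpha catenin (33.6 and 31.9 against 55.5 and 59.4). Cd47, the surface signal that restrains phagocytosis, fell from 68.7 and 73.1 to 27.8 and 30.2 RPKM, beside 68 and 78.5 in wt. The integrin chain Itgb2 and the hyaluronan receptor Cd44, which macrophages share, stood at 75.2 and 68 against 27.3 and 27.2 RPKM and at 58.4 and 53.2 against 26.4 and 24.7. Feedback genes of ERK signalling were mixed, with 5 of 23 higher and 9 lower. The inhibitor Spry4 rose in both fits from 1.3 and 1.1 to 5 and 3.7 RPKM, and the phosphatase Dusp4 in the paired fit from 3.2 and 2.1 to 10.6 and 6.5, whereas Fos, an immediate early factor, was lower at 9.2 and 5.4 against 30.2 and 15.3 in that fit.

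**Figure D5:**
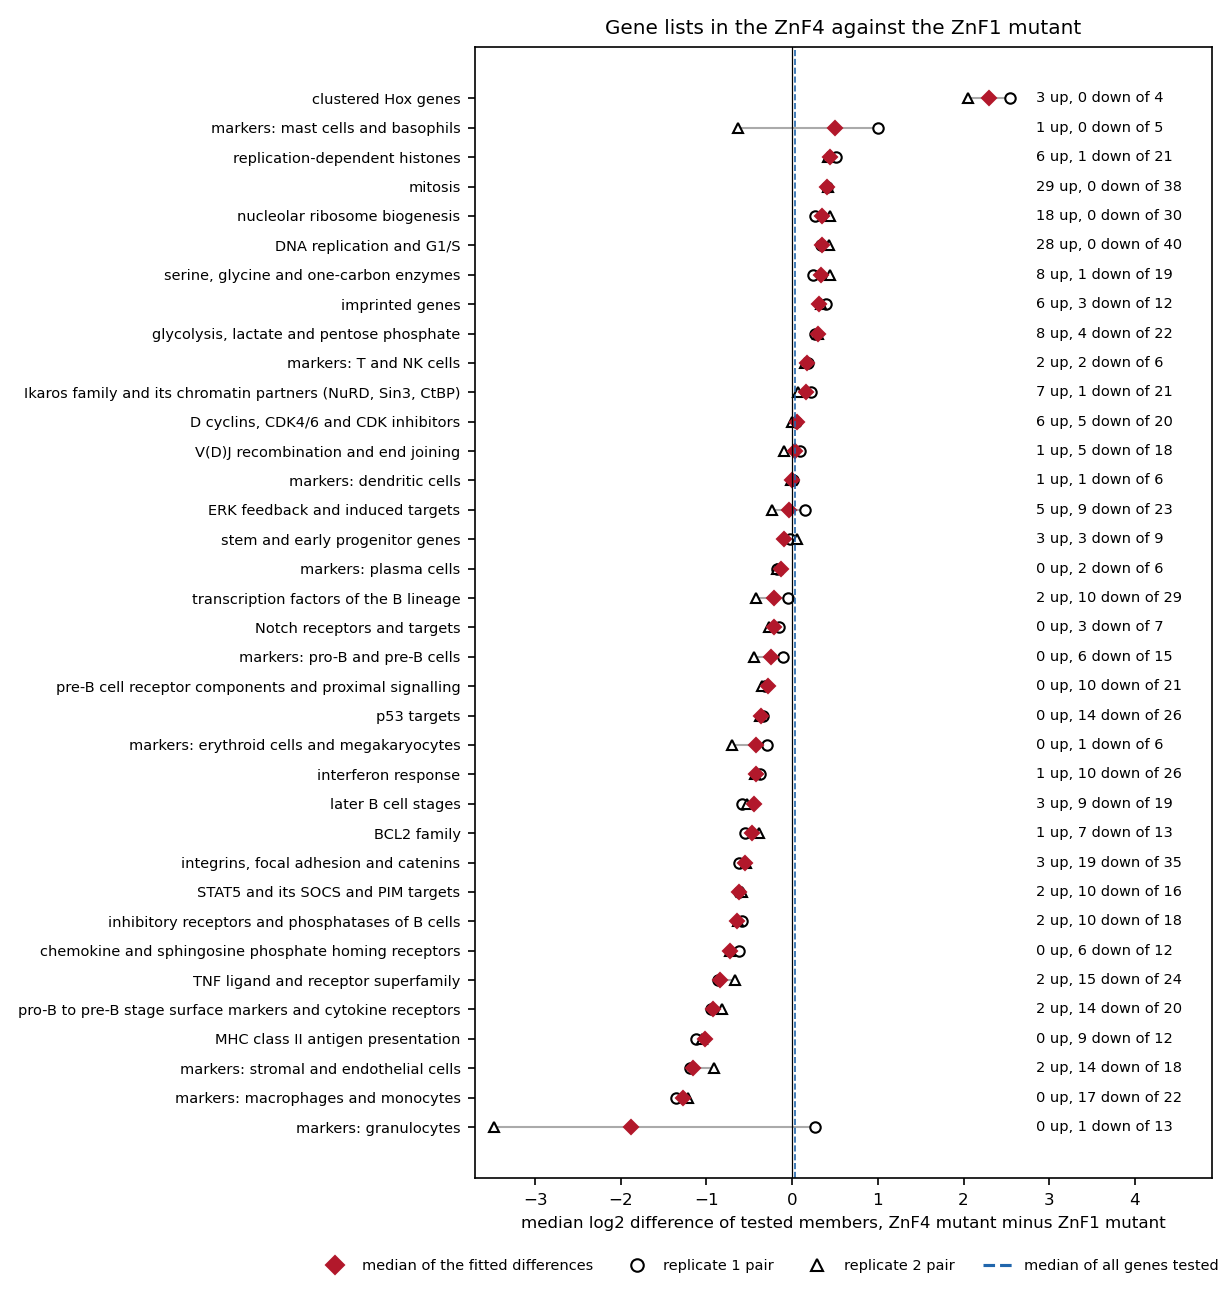
Median log2 difference (ZnF4 mutant minus ZnF1 mutant) of the tested members of 36 gene lists, with diamonds for the fitted differences, circles and triangles for the replicate 1 and replicate 2 pairs, a dashed line for the median of all genes, and the counts past the threshold in the paired fit at the right. Proliferation lists lie slightly above the line in both pairs, MHC class II, macrophage and stage marker lists lie below it in both, and the granulocyte list has opposite signs in the pairs.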

How the data were processed

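The authors deposited RPKM values per RefSeq transcript, per the file headers. TopHat and bedtools are named, with mm9 as the mouse build, in the submitters' processing notes. The counting rule, strand, versions and library depth are not given in the sources used here, so no counting interval was set. From these values, 22099 genes were made by adding the 26531 transcript rows that share a symbol (1 row without a gene was left out, and 39 of 40 symbols turned into numbers were restored through their accession). Summed RPKM was 287007 to 345766 per library, and 10582 to 11119 genes reached 1 RPKM. Samples were grouped by the genotype in the labels. Genes with at least 1 RPKM in 2 of 6 libraries were tested on log2(RPKM + 1) with limma 3.58.1 (R 4.3.3) with an intensity trend, in a fit of 3 group means plus the replicate number, two-sided, with 2 residual and 3.06 prior degrees of freedom (3 and 2.32 without the block). The fit was tested on simulated data. Replicate 2 minus replicate 1 differences correlated across genes at 0.715 between the mutants, 0.5 between wt and the ZnF1 mutant and 0.754 between wt and the ZnF4 mutant; the labels do not say what the number marks, and pairing follows the definition of the comparison.

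The genes named by size are the 12 with the largest difference in each direction among genes past the threshold in both fits with groups that do not overlap, gene models left out. In each of 36 gene lists (777 genes) the named members are mainly the up to 4 with the largest difference in each direction in the paired fit; Ikzf1, Kit, Il2ra, Enpep, Rag1, Rag2, Dntt, Blk, H19 and Igf2 were named in any case, and other members named for their role, for not passing or for passing in both fits were picked after their values were seen. The comparison, the lists and these rules were chosen with earlier results of these data known, and no list was given a test of its own. Sequences were matched by symbol in RefSeq tables of GRCm38.p6, which is not the build of the deposited values. Alternatives were other pseudocounts, filters, scalings and fits, and leaving out libraries.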

Additional observations from a re-analysis of the deposited data

How the results depend on the processing

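The replicate block had the largest effect among the fits that used all 6 libraries: without the pairing 609 genes passed the threshold (183 higher and 426 lower) against 3979 with it (1803 and 2176). With the 4 mutant libraries alone and the block, 2381 genes passed, 825 of them higher. Leaving out each library in turn gave 1193 to 2792 genes, 346 to 1293 higher and 746 to 1558 lower; these fits have 1 library in a group, which is assumed to vary like the others, and fewer residual degrees of freedom. Of the 609 genes called in both fits, 491 passed in all 6. Without wt replicate 1 and ZnF1 mutant replicate 2 and without the block, 0 genes passed (0 higher, 0 lower) by limma, with 1452 at an unadjusted p under 0.05, and Pim3 turned to −0.15 (adjusted p = 0.95). Pseudocounts, filters, scalings, the highest transcript per symbol and the fit without an intensity trend gave 3141 to 4352 genes. Median scaling split the calls into 2144 higher and 2138 lower, and quantile normalization into 2356 and 1996. The number of the 36 lists with a median below 0 was 23, and 20 to 24 under the alternatives. The lists whose median changed sign under an alternative were those of stem and progenitor genes, ERK targets, V(D)J recombination, glycolysis, granulocytes, mast cells and dendritic cells. Glycolysis stood at −0.03 without both those 2 libraries and the block, against 0.30. Depth is unknown, so how far low values are limited by counting could not be assessed.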

Other observations

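Some groups outside the account above were small or mixed. Among the 7 tested Notch receptors and targets, 3 fell in the paired fit, and Heyl, a Notch-induced repressor, fell in both, from 5.6 and 2.9 to 0.3 and 0.3 RPKM, beside 8.1 and 5 in wt. Of 12 tested homing receptors 6 fell in the paired fit and none rose; Ccr7, the receptor for lymph node chemokines, stood at 16 and 13.8 against 5.7 and 3.7 RPKM, and Ptger4, a prostaglandin receptor, at 50.4 and 33.2 against 17.4 and 11.9. The stem and progenitor list held opposite moves in both fits: Kit, Hoxb7 and Lmo1 rose, while Meis1, a partner of Hox proteins, fell from 2.6 and 2.1 to 0.2 and 0.2 RPKM, and Mycn fell as given above. Replication-dependent histones, which mostly lack a poly(A) tail, were positive in 19 of 21 tested members (6 higher and 1 lower in the paired fit), and their level in polyadenylated RNA may depend on the selection of RNA.

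The T cell list held single genes that moved apart. Cd4 was at 1.7 and 2 RPKM in ZnF1 mutant cells and listed at 0 in both ZnF4 mutant libraries, beside 0.1 and 0.1 in wt. It passed the expression filter only through the ZnF1 mutant libraries, in which it was high. Lat, an adaptor of T cell receptor signalling that pre-B cells also use, stood at 26.2 and 12.1 RPKM in wt, 2.4 and 1 in the ZnF1 mutant and 4.2 and 2.6 in the ZnF4 mutant. Mast cell and basophil markers summed to 1.8 and 12.4 RPKM in ZnF1 mutant cells and 22.8 and 20.3 in the ZnF4 mutant, with Kit, at 16.2 and 15.4 RPKM, the largest part of the latter. The surface gene Cdh5 of endothelium stood at 0.1 and 0.1 against 2.1 and 1.3 RPKM, opposite to the other stromal and endothelial markers except Thy1.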
